A study of Mus musculus with 8 samples.

Results

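*Padi1*, *Padi2*, *Padi3*, *Padi4* and *Padi6* encode the peptidylarginine deiminase family, whose active enzymes turn arginine residues of proteins into citrulline. The study names PAD1, PAD2, PAD3 and PAD4 as active. The 5 genes were taken by symbol from the Ensembl identifiers of the lung count tables, and all 5 were found among the 55416 genes listed. Of these 5 genes, *Padi1*, *Padi2* and *Padi4* passed the filter on low counts, as did 18560 genes in all. *Padi3* and *Padi6* did not pass, and they are described by their counts.

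The active deiminases are calcium-dependent and lower the positive charge of their substrates. PAD4 carries a nuclear localization signal, is abundant in neutrophils and citrullinates histones when neutrophil extracellular traps (NETs) form. PAD2 is the most widely expressed member and is also made by macrophages, PAD1 and PAD3 act in epidermis and hair follicle, and PAD6 is a protein of the oocyte.

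Lung RNA was sequenced from female C57BL/6J mice, labelled C57BL/6, aged 6 to 8 weeks. The 3 control mice (numbered 1, 2 and 4) received dimethyl sulfoxide (DMSO) by tail vein and saline into the peritoneum 0.5 h later. The 3 LPS mice (1, 6 and 7) received lipopolysaccharide, the endotoxin of Gram-negative bacteria, at 35 mg/kg. The 2 dual-treated mice (2 and 5) received YW3-56 at 10 mg/kg in DMSO 0.5 h before the same dose of LPS, and all lungs were taken about 24 h after LPS or saline. YW3-56 is labelled a PAD4 inhibitor, and the treatment protocol of the study names it a PAD inhibitor. It acts on the protein, and only mRNA was measured in these libraries. The methods name no DMSO injection for the LPS mice, so DMSO and LPS cannot be told apart in the comparison of LPS with control, nor DMSO and YW3-56 in that of dual treatment with LPS. No group received YW3-56 without LPS. Any pair of comparisons shares a group of mice, so their values are given side by side and not correlated.

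The total counts were 19061949, 19796242 and 20527836 in control mice 1, 2 and 4. They were 20818501, 19379911 and 19279724 in LPS mice 1, 6 and 7, and 19875939 and 20908608 in dual-treated mice 2 and 5. Levels are given in CPM, the counts of a gene relative to library size, after scaling by edgeR's TMM factors. A floor of 3 counts lay between 0.132 and 0.178 CPM in these libraries, and it covers counting error only. A gene was called where the Benjamini-Hochberg adjusted p-value of edgeR's quasi-likelihood test was under 0.05. In all comparisons of these bulk samples, fewer cells of a type and less RNA per cell cannot be told apart.

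The lung label was checked against 10 lung marker genes. All had counts in each of the 8 mice, and their summed level was 69400, 70800 and 76000 CPM in control mice. It was 97600, 78900 and 72800 CPM in LPS mice 1, 6 and 7, and 45000 and 57800 CPM in dual-treated mice 2 and 5. *Scgb1a1*, the secretory protein of club cells, held the most counts of the 10 in every mouse. With LPS, 3 of the 10 rose and 3 fell, with a median log2 fold change (log2FC) of -0.19 against -0.01 for all genes tested. In dual-treated lungs, 1 of 10 rose and 1 fell against control (median -0.30 against 0.0042 for all genes), and 1 rose and 3 fell against LPS (median -0.055 against 0.06). Of all genes tested, 66.5%, 16.1% and 59.1% were called in these 3 comparisons, beside 6, 2 and 4 of the 10 lung genes. The counts and medians of all other lists are to be read against the same all-gene values.

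LPS mice 6 and 7 stood apart from the other 6 mice by transcripts of squamous epithelium and skeletal muscle. Of 15 squamous genes listed, 14 were found, and their summed level was 788 CPM in LPS mouse 6 and 2130 CPM in LPS mouse 7. In the other mice it lay between 22.2 CPM in control mouse 1 and 51.5 CPM in LPS mouse 1. The keratin *Krt4* held the most counts of the list in LPS mouse 6 and *Krt13* in LPS mouse 7, and *Krt13* had 4952 and 15897 counts there against at most 20 in any other mouse. The cornified envelope gene *Sprr3* had 801 and 2247 counts in these mice and 0 in LPS mouse 1, while *Crnn* was at 0 in all 8 mice. The 12 muscle genes summed to 546 and 1390 CPM in LPS mice 6 and 7 and to at most 21.4 CPM in the others. Of these, *Acta1* had 3630 and 10753 counts in the 2 mice and *Tnnc2* had 0. Of 12 squamous genes tested, 9 rose and 1 fell with LPS, and without LPS mice 6 and 7, 1 rose and 4 fell. Of 10 muscle genes tested, 10 rose with LPS, and 1 rose without these mice. From LPS to dual treatment, 9 of the 12 squamous genes fell and 1 rose, and 9 of the 10 muscle genes fell. Without LPS mice 6 and 7, 4 squamous genes rose and 1 fell, and 1 muscle gene rose and 2 fell. Against control, dual-treated lungs had 1 squamous gene called up by edgeR and 0 muscle genes called, where DESeq2 and an unadjusted p-value under 0.05 gave 0 muscle genes as well. The squamous medians were 6.23, 0.88 and -5.23, and the muscle medians 5.03, 0.14 and -5.65, for LPS against control, dual treatment against control and dual treatment against LPS. For these medians, groups whose libraries all held 3 counts or fewer were set to that floor. Comparisons of *Padi1*, *Padi2* and *Padi4* with LPS lungs are therefore given with and without LPS mice 6 and 7, a choice made after the data were seen.

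The 5 genes lie together on chromosome 4 of GRCm39, within 225232 bp. *Padi6* (ENSMUSG00000040935) spans chr4:140454666-140469954, *Padi4* (ENSMUSG00000025330) chr4:140472808-140501939 and *Padi3* (ENSMUSG00000025328) chr4:140512672-140537960. *Padi1* (ENSMUSG00000025329) spans chr4:140540291-140573089, and these 4 genes are on the minus strand. *Padi2* (ENSMUSG00000028927), at chr4:140633647-140679897, is on the plus strand, so that it is the only member transcribed towards higher coordinates. The gaps measure 2853 bp between *Padi6* and *Padi4*, 10732 bp between *Padi4* and *Padi3*, and 2330 bp between *Padi3* and *Padi1*. *Padi1* and *Padi2* are 60557 bp apart. Each canonical transcript has 16 exons. The longest identical stretch between transcripts of any pair was 63 bases, between *Padi1* and *Padi3*, and *Padi4* shared at most 37 bases with another member. These stretches are shorter than the 150-base reads. The strand setting of the counting is not given in the sources used here, so reads of a gene and of an antisense neighbour cannot be told apart. The overlapping genes with a row in the count tables had at most 4 counts in any mouse. *Gm69576*, which overlaps *Padi4*, had no row there, nor had *Gm52482* at *Padi3* and *Gm46719* at *Padi2*. The bound therefore does not cover *Padi4* or *Padi3*, and it covers *Padi2* only in part.

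**Figure D1:**
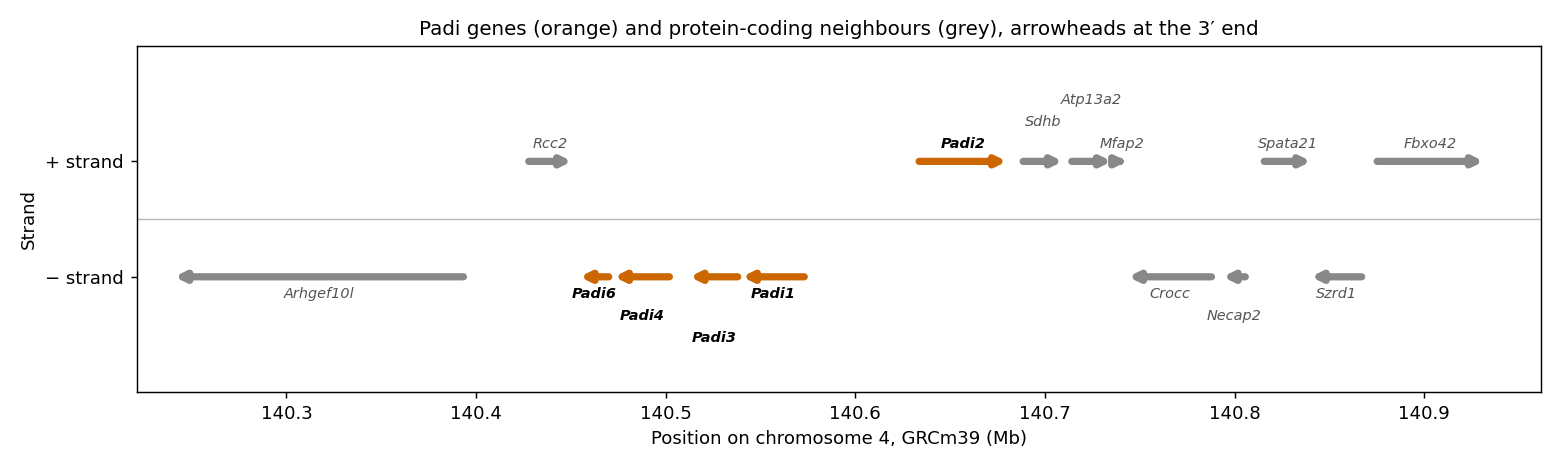
Map of the *Padi* cluster on chromosome 4 (position in Mb, GRCm39), with genes of the plus strand above the line and of the minus strand under it, *Padi* genes in orange and the 10 protein-coding neighbours with counts in grey. *Padi2* is the only *Padi* gene on the plus strand and lies 60557 bp from *Padi1*.

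Per kb of exon, *Padi4* had the highest mean level of the 5 genes in every group, followed by *Padi2* and *Padi1*. In control lungs the levels were 1.22 ± 0.629 (SD, n = 3) CPM per kb for *Padi4*, 0.664 ± 0.0914 for *Padi2* and 0.425 ± 0.0947 for *Padi1*. The control ranges of *Padi4*, 0.614 to 1.87 CPM per kb, and *Padi2*, 0.577 to 0.759, overlapped, whereas those of *Padi2* and *Padi1* did not. In LPS lungs the levels were 0.815 ± 0.0927 (SD, n = 3) CPM per kb for *Padi4*, 0.624 ± 0.0908 for *Padi2* and 0.239 ± 0.349 for *Padi1*. There *Padi4* lay above *Padi2* in all 3 mice with no overlap, and the ranges of *Padi2* and *Padi1* overlapped. In dual-treated lungs *Padi4* reached 3.05 ± 1.46 (SD, n = 2) CPM per kb, *Padi2* 0.783 ± 0.186, *Padi1* 0.13 ± 0.081 and *Padi3* 0.116 ± 0.0339. The ranges of *Padi1* and *Padi3* overlapped in that group, and *Padi6* had no counts. The exons of the 11 annotated *Padi4* transcripts cover 5659 bp, while the longest transcript has 3021 bp. Per kb of the longest transcript, *Padi4* stood at 2.28, 1.53 and 5.71 CPM per kb in control, LPS and dual-treated lungs. The order of the 5 genes was the same on both length scales, and on the second scale *Padi4* and *Padi2* did not overlap in control lungs (1.15 to 3.50 against 0.606 to 0.797 CPM per kb).

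*Padi4* thus supplied most deiminase transcripts in dual-treated lungs. Its share of all *Padi* counts was 58.4%, 39.4% and 67.6% in control mice 1, 2 and 4, with 95% Wilson intervals of 52.0 to 64.5%, 32.7 to 46.5% and 62.5 to 72.4%. In LPS mice 1, 6 and 7 the share was 54.0% (45.7 to 62.0%), 61.6% (53.6 to 69.1%) and 42.9% (35.8 to 50.3%). In dual-treated mice 2 and 5 it was 74.6% (69.7 to 78.9%) and 79.8% (76.6 to 82.7%), above each of the other 6 mice, although the interval of dual-treated mouse 2 overlapped that of control mouse 4. The intervals cover counting error only. The ratio of *Padi4* to *Padi2* counts was 2.27, 1.04 and 2.74 in control mice, 1.21, 1.88 and 1.36 in LPS mice, and 3.45 and 4.96 in dual-treated mice.

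With LPS alone, none of the 3 *Padi* genes tested was called by edgeR, 0 had an unadjusted p-value under 0.05 and 0 were called by DESeq2. Over all genes, 66.5% were called in this comparison, 32.6% up and 33.9% down, or 6046 and 6300 genes. With library sizes in place of TMM factors the counts were 4336 up and 7832 down, and the median log2FC of all genes moved from -0.01 to -0.29. For dual treatment against control, 0 of the 3 genes were called by edgeR, 1 had an unadjusted p-value under 0.05 and 1 was called by DESeq2, beside 16.1% of all genes called (9.13% up and 7.02% down). The 16.1% is the share called by edgeR. In that comparison *Padi1*, *Padi3* and *Padi4* had groups that did not overlap. The share of all genes without overlap was not computed, so this count has no background and is a description only. Between dual-treated and LPS lungs 1 of the 3 was called, *Padi4*, beside 59.1% of all genes (31.7% up and 27.4% down, or 5875 and 5085 genes). With library sizes the last counts were 7889 up and 3225 down, and the median log2FC moved from 0.06 to 0.38. Two-sided tests were used throughout.

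*Padi4*, which encodes the deiminase of neutrophil nuclei, was measured at 6.65, 3.47 and 10.6 CPM in control mice 1, 2 and 4 (136, 74 and 230 counts). It was at 4.45, 5.20 and 4.19 CPM in LPS mice 1, 6 and 7 (75, 90 and 75 counts) and at 11.4 and 23.1 CPM in dual-treated mice 2 and 5 (252 and 526 counts). The LPS mice were close to each other and lay inside the wide control range, and both dual-treated mice were above every other mouse. Dual-treated mouse 2 exceeded control mouse 4 by little, and mouse 5 set most of the group mean.

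From LPS to dual treatment *Padi4* rose from 4.61 ± 0.525 (SD, n = 3) to 17.3 ± 8.24 CPM (SD, n = 2), a log2FC of 1.90 (standard error 0.421, 95% confidence interval 0.96 to 2.85), or 3.74-fold. edgeR gave an adjusted p of 0.00371 (Benjamini-Hochberg), and the groups did not overlap. The call held in every alternative, with the lowest log2FC, 1.29, without dual-treated mouse 5 (adjusted p = 0.0499, same test). The log2FC was 1.95 without LPS mice 6 and 7 (adjusted p = 0.0488, same edgeR test), with LPS mouse 1 as the only one of its group.

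Against control, *Padi4* in dual-treated lungs had a log2FC of 1.32 (standard error 0.412, 95% confidence interval 0.40 to 2.25), or 2.50-fold, from a control mean of 6.90 ± 3.56 CPM (SD, n = 3). The groups did not overlap, but the adjusted p was 0.0578 in edgeR's test, so the gene was not called. It did meet the criterion of the study, more than a 2-fold difference with a p-value taken here as unadjusted, which 7.04% of all genes met upwards. The study used DESeq2, and its criterion was applied here to edgeR's values. DESeq2 gave a log2FC of 1.30 (adjusted p = 0.0113), and over all alternatives the adjusted p ran from 0.00185 without a filter on low counts to 0.37 without dual-treated mouse 5 (edgeR). Without dual-treated mouse 5 the log2FC was 0.70, and without control mouse 4, the highest control, it was 1.74 (adjusted p = 0.0344, edgeR).

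With LPS against control, *Padi4* had a log2FC of -0.58 (standard error 0.392, 95% confidence interval -1.46 to 0.30, adjusted p = 0.213 in edgeR's test), and the groups overlapped. The difference depended on the control mice. Without control mouse 2, the lowest control, it was -0.91 (adjusted p = 0.0398, edgeR), and without control mouse 4 it was -0.13 (adjusted p = 0.775, edgeR). It was -0.63 without LPS mice 6 and 7 (adjusted p = 0.432, edgeR).

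**Figure D2:**
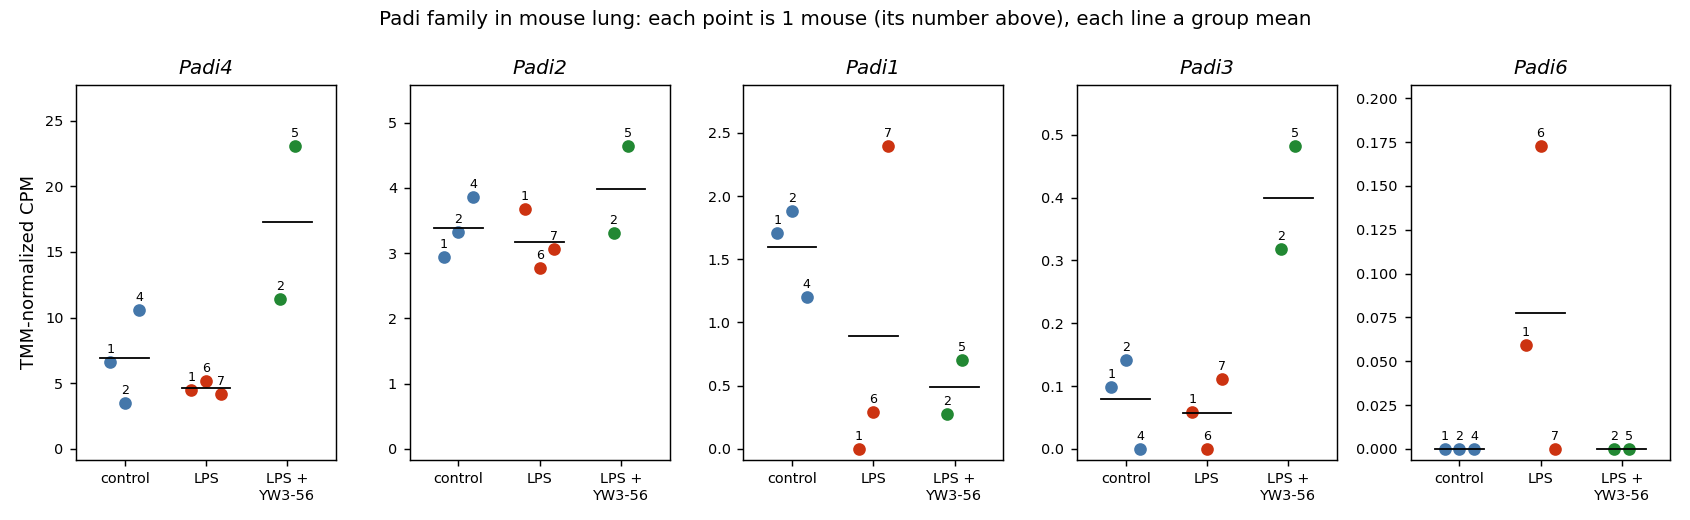
TMM-normalized CPM of the 5 *Padi* genes (vertical axes, 1 scale per gene) in control, LPS and dual-treated lungs; each point is 1 mouse with its number and each line a group mean. *Padi4* was at 11.4 and 23.1 CPM in the dual-treated mice and at most 10.6 CPM in the other 6.

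**Figure D3:**
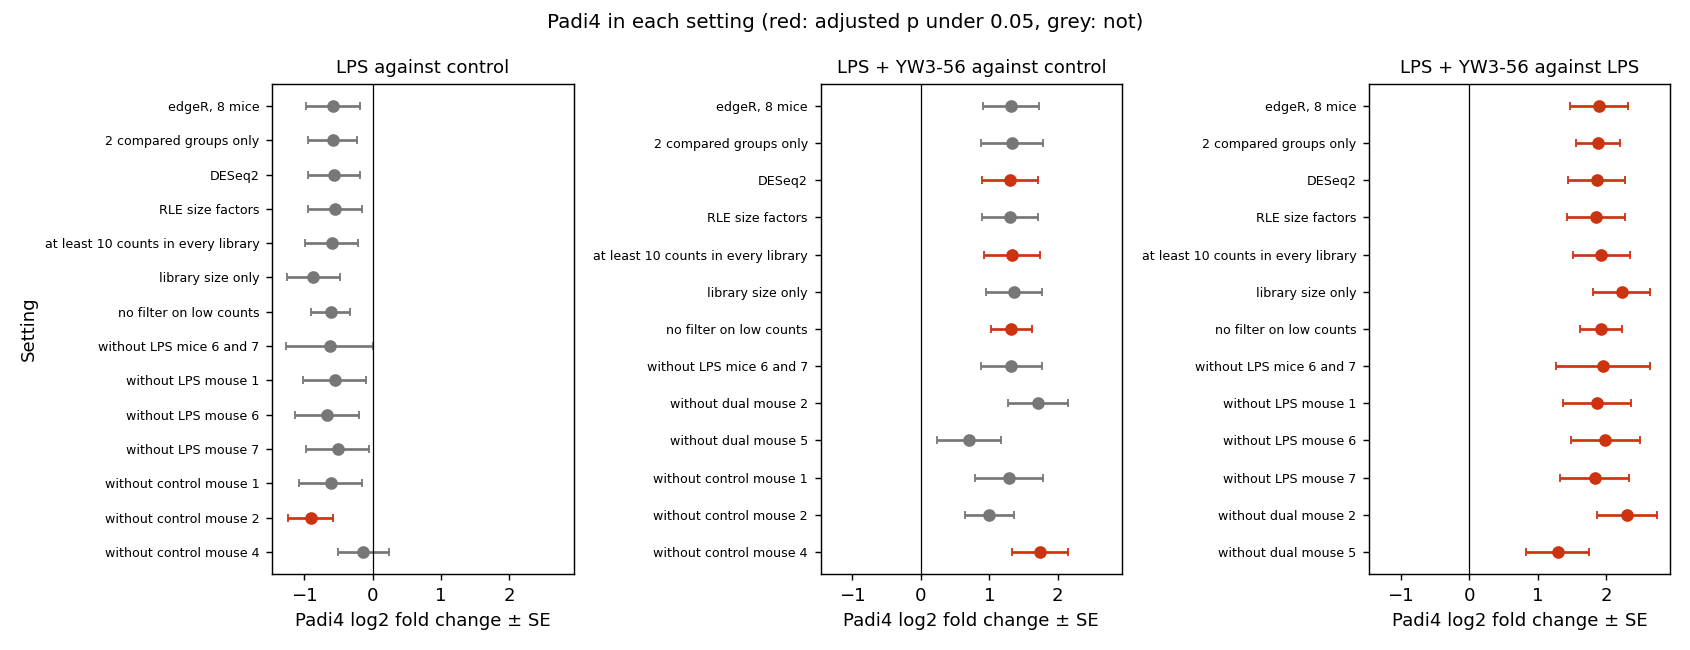
*Padi4* log2FC with its standard error (horizontal axis) in each comparison and setting, with red points for an adjusted p under 0.05. Between dual-treated and LPS lungs the values ran from 1.29 to 2.30 and all points are red, whereas against control the call depended on the setting and the mice.

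Transcripts of mature neutrophils did not follow *Padi4* with LPS. The 8 genes of this list, all found and tested, summed to 231, 128 and 134 CPM in control mice 1, 2 and 4. The sum was 2190, 3060 and 1910 CPM in LPS mice 1, 6 and 7, and 1800 and 2480 CPM in dual-treated mice 2 and 5. The LPS and dual-treated sums overlapped, and both groups lay above all controls. The calprotectin subunit *S100a9* held the most counts of the list in every mouse, and no gene of the list was at 0. All 8 rose with LPS (median log2FC 2.94 against -0.01 for all genes tested), and 7 rose with the dual treatment (median 3.35 against 0.0042). Between dual-treated and LPS lungs, 4 rose and 1 fell (median 0.59 against 0.06). The chemokine receptor gene *Cxcr2* rose by 1.48, the resistin-like gene *Retnlg* by 1.49, the collagenase gene *Mmp8* by 1.08 and the receptor gene *Csf3r* by 1.05 on the log2 scale. The neutrophil surface marker *Ly6g* fell by 2.75. Leaving out LPS mice 6 and 7, 1 of the 8 rose and *Ly6g* was not called, while DESeq2 on all mice called 2 of the 8 down.

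In proportion to this sum *Padi4* was 2.89%, 2.71% and 7.87% in control mice 1, 2 and 4, and 0.203%, 0.17% and 0.219% in LPS mice 1, 6 and 7. It was 0.635% and 0.93% in dual-treated mice 2 and 5, between the other groups with no overlap. These ratios were chosen after the values were seen. They depend on the genes summed, as *S100a8* and *S100a9*, at 648 and 1470 CPM on average, made up most of the sum in LPS lungs. These genes rose 19.6-fold and 20.9-fold with LPS, while the list ranged from 1.96-fold for *Csf3r* to 35.9-fold for *Ly6g*. Ratios of *Padi4* to single genes were not computed.

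Genes of neutrophil precursors, whose products fill the primary and secondary granules, also rose with LPS and had other values in dual-treated lungs, a difference between lists that was not tested. The 9 genes summed to 122, 151 and 65.9 CPM in control mice, 650, 661 and 640 CPM in LPS mice, and 303 and 119 CPM in dual-treated mice 2 and 5. *Ltf* held the most counts in the control and LPS mice and *Ngp* in the dual-treated mice. *Fcnb* was at 0 in control mouse 4 and *Ms4a3* in dual-treated mouse 2. Of 8 tested, 8 rose with LPS (median 3.20, or 3.08 with *Ms4a3* in controls set to the floor), 2 rose with the dual treatment against control (median 0.23, or 0.14), and 7 fell between LPS and dual treatment (median -2.59).

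Transcripts of monocytes and macrophages were highest in the same mice as *Padi4*. Their 11 genes summed to 389, 292 and 378 CPM in control mice 1, 2 and 4 and to 402, 406 and 285 CPM in LPS mice 1, 6 and 7. In dual-treated mice 2 and 5 the sum was 1080 and 1120 CPM, above all other mice, while the control and LPS mice overlapped. None of the 11 was at 0 in any mouse. *Csf1r* held the most counts in the control mice and in dual-treated mouse 5, *Ly6c2* in the LPS mice and *C1qb* in dual-treated mouse 2. With LPS, 2 rose and 4 fell (median -0.18 against -0.01), among them the monocyte genes *Ly6c2*, which rose by 3.37, and *Ccr2*, which fell by 3.19 on the log2 scale. With the dual treatment, 9 of the 11 rose against control (median 1.95 against 0.0042), and 9 rose against LPS (median 1.90 against 0.06). Against LPS, *Ccr2* rose by 3.77 and the complement gene *C1qa* by 2.64 on the log2 scale. *Padi4* equalled 1.71%, 1.19% and 2.79% of this sum in control mice, 1.11%, 1.28% and 1.47% in LPS mice, and 1.06% and 2.05% in dual-treated mice, so that on this scale all 3 groups overlapped. The part of either cell type in the *Padi4* result was not tested.

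**Figure D4:**
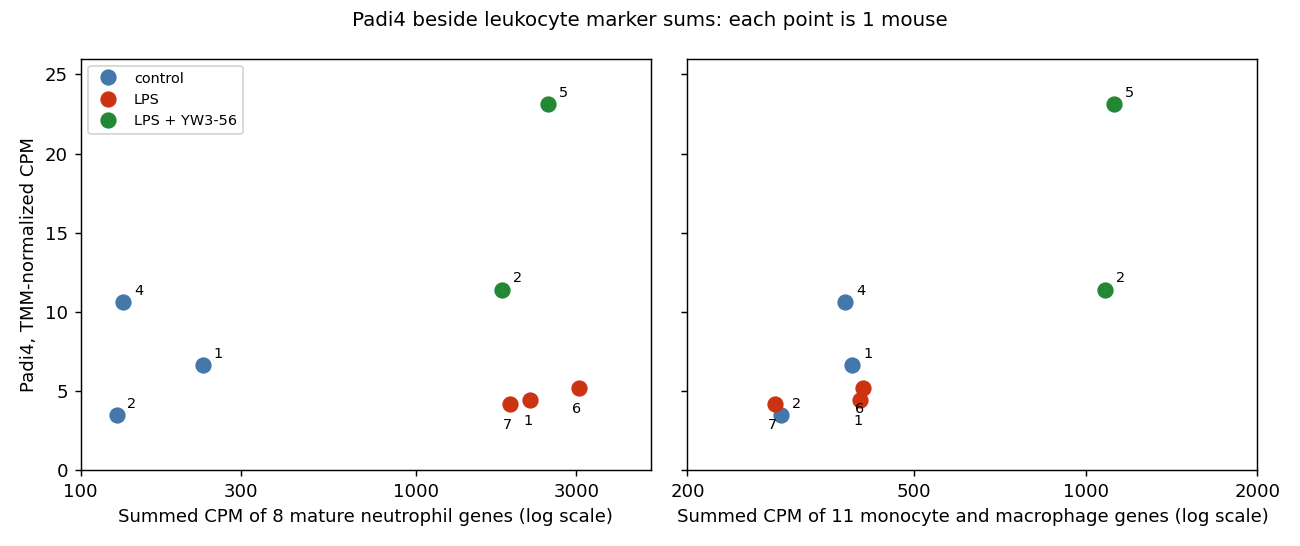
*Padi4* (TMM-normalized CPM) against the summed CPM of 8 mature neutrophil genes (left) and of 11 monocyte and macrophage genes (right, both on log scales), with 1 point per mouse. The LPS mice have neutrophil sums of 1910 to 3060 CPM with *Padi4* at 4.19 to 5.20 CPM, and the dual-treated mice have the highest macrophage sums, 1080 and 1120 CPM.

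*Padi2*, the deiminase gene with the widest expression, varied little. It was at 2.94, 3.33 and 3.86 CPM in control mice 1, 2 and 4, at 3.68, 2.77 and 3.07 CPM in LPS mice 1, 6 and 7, and at 3.31 and 4.65 CPM in dual-treated mice 2 and 5. The groups overlapped in all comparisons, and only dual-treated mouse 5 was above the control mice. The log2FC was -0.09 with LPS (standard error 0.241, 95% confidence interval -0.63 to 0.45, adjusted p = 0.756 in edgeR's test). It was 0.24 with the dual treatment against control (95% confidence interval -0.35 to 0.83, adjusted p = 0.593, edgeR) and 0.33 against LPS (-0.27 to 0.92, adjusted p = 0.308, edgeR). With LPS its sign turned when control mouse 4 or LPS mouse 6 was left out, and without LPS mice 6 and 7 the log2FC was 0.13. Between dual-treated and LPS lungs it was 0.11 without these mice, 0.042 without dual-treated mouse 5 and 0.53 without dual-treated mouse 2. With library sizes in place of TMM factors it was 0.66 (adjusted p = 0.0508, edgeR). The intervals allow changes of up to 1.90-fold upwards, the upper bound of dual treatment against LPS.

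*Padi1*, the epidermal member, differed most among the LPS mice. It had 35, 40 and 26 counts in control mice 1, 2 and 4 (1.71, 1.88 and 1.20 CPM), and 0, 5 and 43 counts in LPS mice 1, 6 and 7 (0, 0.289 and 2.40 CPM). Dual-treated mice 2 and 5 had 6 and 16 counts (0.272 and 0.702 CPM). LPS mouse 7, which had the highest squamous sum, thus had the highest *Padi1* level of all 8 mice, LPS mouse 1 had none, and both dual-treated mice were under every control. The squamous sum of LPS mouse 6 was also raised, yet its *Padi1* level was under every control. The part of squamous tissue in the *Padi1* values was not tested.

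The fitted log2FC of *Padi1* was -0.81 with LPS (standard error 0.955, 95% confidence interval -2.96 to 1.33, adjusted p = 0.471 in edgeR's test). Without LPS mouse 7 it was -3.39 (adjusted p = 0.00802, edgeR). Without LPS mice 6 and 7, control lungs were at least 8.96-fold above LPS mouse 1, taking the 0 counts of this mouse as a floor of 3. In dual-treated lungs against control the groups did not overlap, with a log2FC of -1.69 (standard error 1.14, 95% confidence interval -4.25 to 0.87, adjusted p = 0.357, edgeR). That value was -2.55 without dual-treated mouse 5 and -1.2 without dual-treated mouse 2. Between dual-treated and LPS lungs the log2FC was -0.88 (adjusted p = 0.534, edgeR) and turned to 1.69 without LPS mouse 7 (adjusted p = 0.166, edgeR). Without LPS mice 6 and 7, dual-treated lungs were at least 2.74-fold above LPS mouse 1, against the same floor. The direction of *Padi1* between LPS and dual-treated lungs thus rested on LPS mouse 7, while against control the LPS value was negative in every alternative and only its size and call depended on that mouse.

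*Padi3*, the hair follicle member, was near the limit of detection. It had 2, 3 and 0 counts in control mice 1, 2 and 4, 1, 0 and 2 counts in LPS mice 1, 6 and 7, and 7 and 11 counts in dual-treated mice 2 and 5. Both dual-treated mice were above the other 6, all of which were at or under 3 counts. Over the summed counts of each group, scaled by effective library size, the ratio of dual-treated to control lungs was 5.10 (18 against 5 counts, 95% counting interval 1.83 to 17.6). Against LPS lungs it was 6.97 (18 against 3 counts, 2.04 to 37.0), and both intervals leave out the spread between mice. Fitted without a filter on low counts, edgeR gave an adjusted p of 0.263 against control and 0.0834 against LPS, so *Padi3* was not called.

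*Padi6*, the oocyte member, had 1 and 3 counts in LPS mice 1 and 6 and 0 counts in the other 6 mice, so all groups were at or under the floor and no fold is given. Of 11 oocyte genes listed, all were found and 4 were tested. *Nlrp5* and *Zar1*, which are required in the oocyte and early embryo, were at 0 in all 8 mice. The oocyte list summed to 11.3, 11.2 and 16.9 CPM in control mice, 6.94, 6.24 and 8.21 CPM in LPS mice, and 13.5 and 15.9 CPM in dual-treated mice. *Tle6* held the most counts in every mouse, fell by 1.56 with LPS and rose by 1.66 from LPS to dual treatment on the log2 scale, and the other 3 tested genes were not called in any comparison. The list's medians were -0.17, 0.18 and 0.83 for LPS against control, dual treatment against control and dual treatment against LPS.

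The genes most like each *Padi* gene were sought by Pearson correlation of log2 CPM over the 8 mice among 15612 genes, as a description, since groups and library scaling are shared by all genes. For *Padi4* they were *Ddx59* (r = 0.983), the autophagy gene *Atg7* (0.96), *9230111E07Rik* (0.951), the heparanase gene *Hpse* (0.947) and *Izumo1* (0.945). *Hpse* was at 7.02, 7.28 and 14.5 CPM on average in control, LPS and dual-treated lungs, and *Ddx59*, an RNA helicase gene, at 5.78, 4.65 and 8.19 CPM. Both means were highest in dual-treated lungs, and only that of *Ddx59* was lowest with LPS, as for *Padi4*. None of the 8 mature neutrophil genes and none of the 11 monocyte and macrophage genes was among the 5. With only 5 places among 15612 genes, this does not show whether those genes follow *Padi4*. Their own correlations with it are not given here. For *Padi2* the genes were *Ano10* (r = 0.938), *Qng1* (0.938), *Cryzl2* (0.93), *Gm49768* (0.921) and *Elmo2* (0.919). For *Padi1* they were the squalene epoxidase gene *Sqle* (r = 0.981), *Aif1l* (0.979), *Nr2c2* (0.976), *Dzip1* (0.975) and *Ppp2r2b* (0.968).

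The promoters of *Padi4* and *Padi2* are shown because these members had the highest mean level per kb in every group, and *Padi4* alone was called in a comparison. Each window takes 250 bases before and 50 after the start of the canonical transcript in GRCm39, read 5′ to 3′ on the strand of the gene. They cover chr4:140501583-140501882 on the minus strand for *Padi4* and chr4:140633397-140633696 on the plus strand for *Padi2*. The whole *Padi4* window lies inside the annotated gene, whose 5′ end is at 140501939, so another of its transcripts starts further upstream. Windows at other *Padi4* starts were not examined. Capitals mark matches to 4 motifs on either strand. They are the GC box GGGCGG, written CCGCCC when it lies on the opposite strand, and the CCAAT box, written ATTGG there. The others are the TATA box TATAAA, written TTTATA on the opposite strand, and the purine-rich core of myeloid factors GAGGAA, written TTCCTC there.
Padi4: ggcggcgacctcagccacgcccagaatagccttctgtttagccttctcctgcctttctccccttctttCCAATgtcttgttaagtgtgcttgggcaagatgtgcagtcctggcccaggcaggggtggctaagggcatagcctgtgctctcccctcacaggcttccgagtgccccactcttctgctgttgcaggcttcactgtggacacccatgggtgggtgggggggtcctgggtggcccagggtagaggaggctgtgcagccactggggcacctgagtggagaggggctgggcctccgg
Padi2: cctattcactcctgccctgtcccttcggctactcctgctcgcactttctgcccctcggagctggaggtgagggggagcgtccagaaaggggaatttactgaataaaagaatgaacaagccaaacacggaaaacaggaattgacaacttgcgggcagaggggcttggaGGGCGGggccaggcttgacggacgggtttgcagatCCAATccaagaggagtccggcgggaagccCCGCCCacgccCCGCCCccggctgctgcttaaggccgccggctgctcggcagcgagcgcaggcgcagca
Both windows have 62.7% G and C, against a median of 54.3% over 21247 protein-coding promoters of the same length. The *Padi4* window has 5 CpG dinucleotides and the *Padi2* window 21, against a median of 11 with quartiles of 3 and 21. GGGCGG was found 3 times in the *Padi2* window and 0 times in that of *Padi4*, and 42.4% of all promoters hold it. CCAAT, held by 39.9% of all promoters, was found 1 time in each. Neither window holds TATAAA (13.3% of promoters) or GAGGAA (27.7%). In the other windows, *Padi1* had none of the 4 motifs, *Padi3* had 1 GGGCGG and 2 CCAAT, and *Padi6* had 1 GGGCGG, 1 CCAAT and 2 GAGGAA. A match describes the letters only and is no binding site.

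Among the 10 protein-coding neighbours with counts within 200 kb of the cluster, 4 rose and 3 fell with LPS, 2 rose with the dual treatment against control, and 4 rose and 1 fell between LPS and dual treatment. These counts are near the shares of all genes called, 66.5%, 16.1% and 59.1%. *Rcc2*, the neighbour nearest to *Padi6*, was at 83.2 ± 5.0, 80.8 ± 9.54 and 96.3 ± 13.2 CPM (SD) in control, LPS and dual-treated lungs and was not called. *Arhgef10l*, next beyond it, was at 26.8 ± 0.74, 19.6 ± 6.23 and 51.0 ± 9.92 CPM and rose with the dual treatment by 0.93 against control and by 1.38 against LPS on the log2 scale. On the side of *Padi2*, the microfibril gene *Mfap2* fell by 3.38 with LPS and rose by 2.83 from LPS to dual treatment, and the lysosomal ATPase gene *Atp13a2* fell by 1.32 and rose by 1.25. *Sdhb*, the gene next to *Padi2*, rose by 0.38 with LPS.

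The 9 arginine methyltransferase genes, whose products modify the same residue as the deiminases, were all tested. With LPS, 3 rose and 1 fell (median 0.11 against -0.01 for all genes), 0 were called by edgeR with the dual treatment against control (median 0.29 against 0.0042, with 4 at an unadjusted p-value under 0.05 and 0 called by DESeq2), and 2 rose between LPS and dual treatment (median 0.02 against 0.06). *Prmt2* fell by 1.86 with LPS, from 70.1 to 19.3 CPM, and rose by 1.59 to 58.1 CPM with the dual treatment. *Prmt1*, the main asymmetric dimethyltransferase, rose by 0.33 with LPS, from 69.9 to 87.6 CPM, but with library sizes in place of TMM factors 0 of the 9 in place of 3 were called up by edgeR. *Prmt7* rose by 0.59 between LPS and dual treatment. The summed level was 280, 290 and 288 CPM in control mice, 294, 266 and 259 CPM in LPS mice, and 333 and 310 CPM in dual-treated mice.

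Of 12 genes for NET components and the phagocyte oxidase, 10 rose with LPS (median 1.67), 8 rose with the dual treatment against control (median 1.26), and 4 rose and 5 fell between LPS and dual treatment (median 0.21). Of all genes, 32.6% rose with LPS, 9.13% rose with the dual treatment against control, and 59.1% were called between LPS and dual treatment. *Elane*, *Mpo*, *Prtn3* and *Ctsg*, which all fell between LPS and dual treatment, are also in the neutrophil precursor list. The falls in the NET list and in the precursor list are therefore partly the same. The list divided by function. The granule protease gene *Elane* fell by 4.16 and the myeloperoxidase gene *Mpo* by 4.18 on the log2 scale between LPS and dual treatment, while the oxidase subunit genes *Ncf1* and *Ncf4* rose by 1.24 and 1.15. The sum of the list was 397, 334 and 372 CPM in control mice, 722, 829 and 553 CPM in LPS mice, and 851 and 987 CPM in dual-treated mice. Between LPS and dual treatment, 3 genes in place of 5 fell without LPS mice 6 and 7.

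Of 6 nuclease genes, 5 were tested and *Trex1* was listed at 0 in all 8 mice. How reads on overlapping genes were counted is not given, so this 0 and that of *Tnnc2* may come from the counting. With LPS 4 fell and 1 rose (median -1.52 against -0.01), and between LPS and dual treatment 4 rose and 1 fell (median 1.36 against 0.06). Against control, 2 rose with the dual treatment (median -0.23 against 0.0042). *Dnase1l3*, which degrades chromatin outside the cell, went the other way from the rest, with a rise of 2.60 with LPS, from 0.526 to 3.20 CPM, and a fall to 0.443 CPM in dual-treated lungs. *Dnase1l1* was at 26.5, 9.25 and 38.4 CPM and *Dnase2a* at 24.8, 7.31 and 32.6 CPM in control, LPS and dual-treated lungs. Both were called by edgeR in all comparisons. For dual treatment against control, DESeq2 called 1 nuclease gene up in place of 2, and 0 met the study's criterion. The summed level was 61.7, 61.1 and 63.7 CPM in control mice, 23.4, 23.8 and 23.6 CPM in LPS mice, and 72.0 and 85.0 CPM in dual-treated mice, with no overlap between groups.

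Of 17 genes for proteins documented as substrates of deiminases, 15 were tested. With LPS 8 rose and 1 fell (median 0.63), with the dual treatment against control 1 rose (median 0.13, or 0.16 with groups at the floor set to it), and between LPS and dual treatment 3 rose and 8 fell (median -0.75). Of all genes, 66.5%, 16.1% and 59.1% were called in the same comparisons, and whether the list differs from them was not tested. The chemokine gene *Cxcl10* rose with LPS from 11.6 to 3100 CPM, a log2FC of 8.07, and was at 18.1 CPM in dual-treated lungs. The fibrinogen gene *Fga* had 126, 98 and 130 counts in LPS mice 1, 6 and 7 and at most 3 in any other mouse. The vimentin gene *Vim* fell by 0.98 with LPS and rose by 1.35 with the dual treatment against LPS, and the enolase gene *Eno1* rose by 0.53 with LPS and by 1.37 with the dual treatment against control. *S100a3*, a substrate of PAD3 in hair, had 1, 3 and 3 counts in LPS mice 1, 6 and 7, 9, 8 and 10 in control mice and 13 and 37 in dual-treated mice. The substrate list summed to 1640, 1620 and 1630 CPM in control mice, 8530, 5280 and 5070 CPM in LPS mice, and 2030 and 2230 CPM in dual-treated mice, with *Cxcl10* holding the most counts in LPS mice and *Vim* in the others. *Flg* and *Fgb* did not pass the filter, and *Fgb* was at 0 in all control and dual-treated mice.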

How the data were processed

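Lung RNA of 8 mice was sequenced as paired 150-base reads. The authors filtered the reads with FastQC 0.11.9 and Trim Galore, aligned them to GRCm39 with HISAT2 2.2.1, counted them per gene with featureCounts 2.0.1 and deposited raw counts. Of 55416 identifiers, 54749 matched GENCODE M39, and the other 667 held 0.0533% of counts. Tests used edgeR 4.0.16 under R 4.3.3 on these counts (TMM, filterByExpr, quasi-likelihood, 1 group factor over 8 mice, 5 residual degrees of freedom, Benjamini-Hochberg over 18560 genes). Genes were named as the 5 *Padi* genes, the 5 genes most like each tested member (mean of at least 1 CPM), protein-coding neighbours within 200 kb, and members of fixed lists, with at most 4 called extremes per comparison from lists of over 10 genes. Members and lists were chosen with earlier results of these data known. Alternatives were DESeq2 1.42.0, other scalings, filters and gene lengths, the compared groups only, the study's criterion applied to edgeR's values, and leaving out each mouse. Leaving out LPS mice 6 and 7 was chosen after seeing the data. The methods describe 3 mice per group, and 2 dual-treated libraries were available. Promoters on chromosome 18 were left out of the promoter background. Protein sequences were not analysed here.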

Additional observations from a re-analysis of the deposited data

How the results depend on the processing

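The *Padi4* call between LPS and dual treatment held in all alternatives, with log2FC from 1.29 to 2.30 when single mice were left out. The limits are 2 dual-treated mice and few counts. *Padi1* had at most 43 counts in a library and differed widely between LPS mice. A fit with 1 mouse in a group assumes that this mouse varies like the other groups. No paired analysis was possible because any 2 groups share at most 1 replicate number. Where values changed below, the cause was not tested, beyond the fewer mice or genes in a setting. The count of called *Padi* genes with LPS moved from 0 to 1 without LPS mice 6 and 7, and ranged from 0 to 1 when single mice were left out. With the dual treatment against control it moved from 0 to 1 with DESeq2, no filter on low counts, at least 10 counts in every library, or the study's criterion, and ranged from 0 to 1 when single mice were left out. Against LPS it moved from 1 to 2 without LPS mice 6 and 7. *Padi4* against control passed with DESeq2 (1.30), no filter (1.32), at least 10 counts (1.33) and the study's criterion (1.32), and ranged from 0.70 to 1.74 when single mice were left out. With LPS it ranged from -0.91 to -0.13. *Padi1* with LPS ranged from -3.39 to -0.23 without single mice and was fitted at -8.06 without LPS mice 6 and 7 (adjusted p = 0.00354, edgeR). Between LPS and dual treatment it ranged from -1.74 to 1.69, and was fitted at 6.37 without LPS mice 6 and 7 (adjusted p = 0.023, edgeR), where both fits set *Padi1* against 0 counts. *Padi2* with LPS was 0.015 without control mouse 4, 0.0047 without LPS mouse 6 and 0.13 without LPS mice 6 and 7, in a range from -0.20 to 0.015 without single mice. With the dual treatment against control it was -0.058 without dual-treated mouse 5, in a range from -0.058 to 0.43. Of 288 list and all-gene counts recomputed, 53 moved by over 1.5 times, 26 of them by 1 gene. With library sizes only, methyltransferases called up moved from 3 to 0 with LPS, from 0 to 2 with the dual treatment against control and from 2 to 4 against LPS, lung genes down with LPS from 3 to 7 and up in dual treatment against LPS from 1 to 4, and all genes down in the last from 5085 to 3225. Without LPS mice 6 and 7, lung genes down with LPS moved from 3 to 1 and mature neutrophil genes against LPS from 4 to 1 up and from 1 to 0 down, beside the squamous, muscle and NET counts given with the results, and squamous genes down against control moved from 0 to 2. With the study's criterion, methyltransferases up with LPS moved from 3 to 0, lung genes up from 3 to 1 and down from 3 to 1, all genes up from 6046 to 3401 and down from 6300 to 4049. Under it, all genes down with the dual treatment against control moved from 1302 to 637, nucleases up from 2 to 0 and substrates down from 0 to 2. Against LPS, all genes up moved from 5875 to 3826 and down from 5085 to 2728, and NET genes up from 4 to 2. *Padi4* levels in LPS lungs moved from 4.61 to 4.05 CPM with library sizes.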
